A study of Danio rerio with 14 samples.

Results

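Ionocytes are the cells of fish skin and gill that take up salts from fresh water and exchange acid, ammonia and calcium with it. In zebrafish larvae they lie in the skin among keratinocytes. H+-ATPase-rich (HR) cells secrete acid and ammonia, Na+/K+-ATPase-rich (NaR) cells take up calcium, NCC cells take up sodium and chloride through a cotransporter, and K+-secreting (KS) cells pass potassium outward. Forkhead factors of the foxi3 pair direct skin precursors towards these fates, and gcm2 directs the HR fate.

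The genes described are 8 of the 36351 genes of the tables, found by their symbols. Those of HR cells are ca15a (LL0000003943), ca2 (LL0000003947) and rhcgb (LL0000023640). The NaR gene is trpv6 (LL0000031205) and the NCC gene is slc12a10.2 (LL0000028479). Regulators are foxi3a (LL0000010596), foxi3b (LL0000010597) and gcm2 (LL0000011217). All 8 had reads in each of 12 libraries, from 42 reads (foxi3a) to 4412 (ca2), and all 8 passed the filter of a mean normalized count of at least 10 in each comparison.

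Embryos of the wild-type strain AB were kept from 3 hours post fertilization (hpf) in boscalid, a fungicide that inhibits succinate dehydrogenase, in its metabolite M510F01 (Boscalite in the sample titles), or in the solvent dimethyl sulfoxide (DMSO). Boscalid and M510F01 were each given at 0.03 µg/L, and the DMSO controls received 0.01% by volume. Whole larvae were collected at 96 hpf for RNA. Each group had 4 libraries analysed, with 12893093 to 17060350 reads assigned to genes, and the labels list 1 more sample of either compound that was not analysed here. The labels do not say whether replicates are separate clutches or tanks, so a p-value here reflects variation among these libraries only, which may be technical. In RNA of whole larvae, fewer cells of a type and less RNA per cell cannot be told apart. Nor does it show which cells the reads of a gene came from, so genes listed by ionocyte type may include reads from other cells. Levels below are normalized counts, that is, reads divided by 1 scaling factor per library, with all 12 libraries scaled together. They are compared between libraries and not between genes, because no transcript length was used.

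Carbonic anhydrase 15a, encoded by ca15a, sits at the outer membrane of HR cells and turns over carbon dioxide and bicarbonate. In DMSO larvae ca15a stood at 74.5, 59.7, 89.0 and 68.3 normalized counts in replicates 1 to 4. Boscalid larvae held 101.3, 114, 124 and 158, and M510F01 larvae held 62.3, 91.2, 78.8 and 78.7. Every boscalid library lay above every DMSO and every M510F01 library, while DMSO and M510F01 overlapped. The means were 72.9 ± 12.3 with DMSO, 77.8 ± 11.8 with M510F01 and 124 ± 24.2 with boscalid (SD, n = 4 each). The first 2 of these differed by less than their spread.

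For ca15a the log2 difference between boscalid and DMSO was 0.76 (SE 0.17, 95% interval 0.37 to 1.15), a 1.69-fold higher level on the scale of log2(normalized count + 1). It did not pass the test over all genes (limma adjusted p = 0.37, unadjusted p = 0.0013). Ca15a was the single gene of the 8 with all boscalid libraries above all DMSO libraries, and 2.2% of all genes tested had that arrangement. With DESeq2 on the recovered reads the ca15a difference was 0.76 and passed (adjusted p = 0.045). The authors' deposited table lists ca15a at 0.77 with an adjusted p of 0.057. Over the alternatives tried, the adjusted p of ca15a ran from 0.045 to 0.93. Its neighbour ca15c, on the list of carbonic anhydrases, was at 0.08 (SE 0.25, limma adjusted p = 0.92), and ca15b lay under the filter with a mean of 6.05 normalized counts. Whether reads of these copies were split between them was not tested.

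The Na+/Cl- cotransporter of NCC cells is encoded by slc12a10.2. In DMSO replicates 1, 2, 3 and 4 it stood at 192, 146, 475 and 185 normalized counts. With boscalid slc12a10.2 was at 401, 379, 436 and 579.5, and with M510F01 at 126, 183, 202 and 336. Apart from DMSO replicate 3, every DMSO and M510F01 library lay below every boscalid library. The mean was 212 ± 89 with M510F01, 249 ± 152 with DMSO and 449 ± 90.4 with boscalid (SD, n = 4 each). M510F01 and DMSO, neighbours in this order, differed by less than their spread.

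Boscalid minus DMSO was 0.99 for slc12a10.2 (SE 0.31, 95% interval 0.29 to 1.68), which is 1.98-fold, and did not pass (limma adjusted p = 0.56, unadjusted p = 0.0098). Without DMSO replicate 3 the slc12a10.2 difference was 1.35 and passed (limma adjusted p = 0.043). Leaving out the highest control raises this difference by construction. Over its 20 alternatives the adjusted p ran from 0.043 to 0.97, and slc12a10.2 did not pass in 19 of them. The other 2 cotransporter genes of this cluster, which neighbour it in the RefSeq annotation of GRCz12tu, stood at -0.20 for slc12a10.1 (SE 0.21) and -0.10 for slc12a10.3 (SE 0.22), with limma adjusted p of 0.76 and 0.89.

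The calcium channel of NaR cells, trpv6, stood at 416, 413, 847 and 498 normalized counts with DMSO. It was at 439, 514, 638 and 644 with boscalid, and at 542, 689, 522 and 580.5 with M510F01. DMSO replicate 3 held the highest trpv6 value of all 12 libraries, and all 3 groups overlapped. Means were 544 ± 206, 559 ± 99.7 and 583 ± 74.7 (SD, n = 4 each), in the order DMSO, boscalid, M510F01, and no neighbours in this order differed beyond their spread. The trpv6 difference was 0.09 for boscalid against DMSO (95% interval -0.41 to 0.59) and 0.16 for M510F01 against DMSO (-0.29 to 0.61). Without DMSO replicate 3 they were 0.32 and 0.40, neither past the threshold.

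Cytosolic carbonic anhydrase, ca2, supplies protons and bicarbonate inside HR cells. Its levels were 3351, 3539, 3944 and 4643 normalized counts with DMSO, 3102, 3671, 3729 and 4281 with boscalid, and 3075, 3435, 3868 and 4040 with M510F01. The groups overlapped, and in each of them the ca2 value of replicate 4 was the highest and that of replicate 1 the lowest. Means increased in the order M510F01 (3604 ± 435), boscalid (3696 ± 482) and DMSO (3869 ± 572), closer together than the spread within a group.

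The ammonia channel of the HR cell surface is the Rh glycoprotein rhcgb. It stood at 221, 160.4, 246 and 197 normalized counts with DMSO, 154, 176, 209 and 221 with boscalid, and 203, 253, 211 and 186 with M510F01. Rhcgb overlapped across the groups, with means of 206 ± 36.5, 190.1 ± 30.6 and 214 ± 28.7 (SD, n = 4 each). Intervals of the difference were -0.47 to 0.25 for boscalid against DMSO and -0.27 to 0.39 for M510F01 against DMSO.

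**Figure D1:**
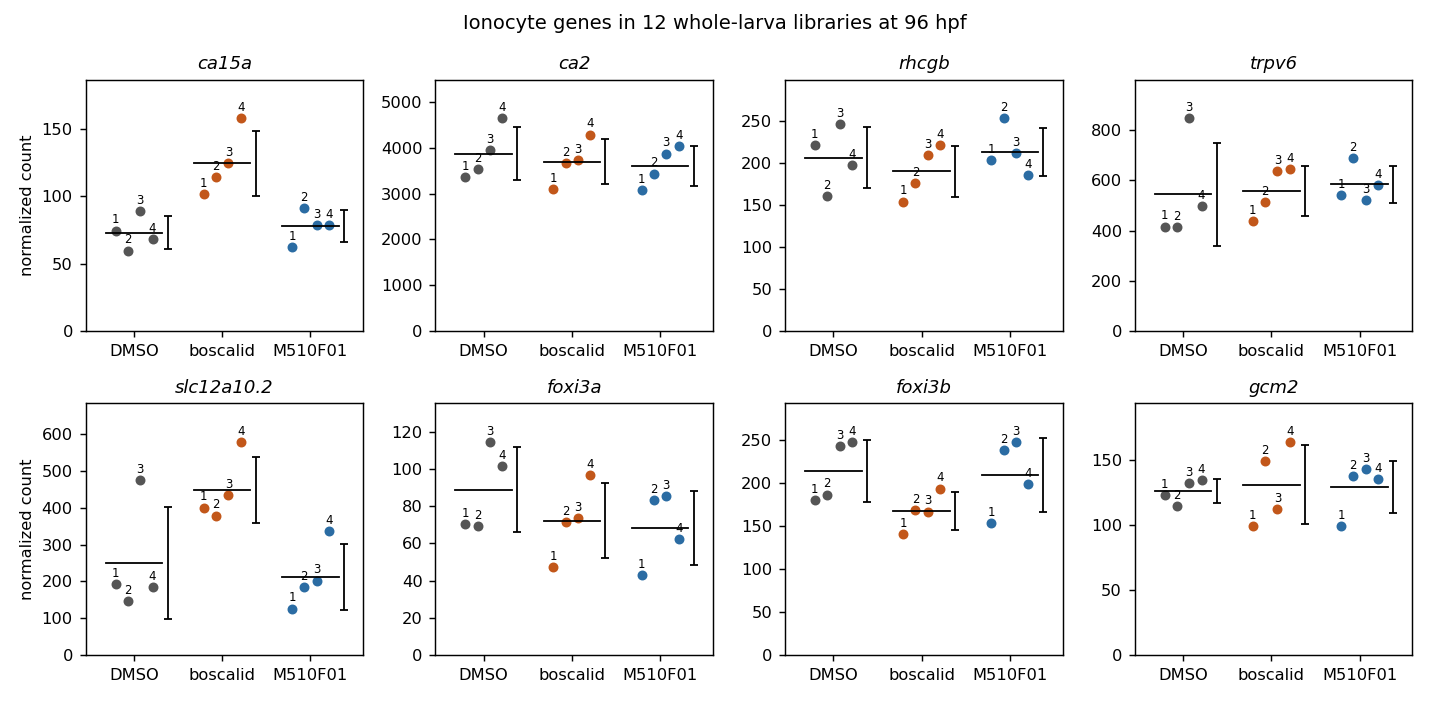
Normalized counts of the 8 ionocyte genes in 12 libraries (points, labelled with the replicate number), with the mean (line) and SD (bar) of each group of 4 and a linear axis from 0. For ca15a the boscalid libraries, from 101.3 to 158, lie above all others, and for slc12a10.2 DMSO replicate 3 stands at 475 among the boscalid libraries.

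Of the regulators, foxi3b, a forkhead factor that works with foxi3a to specify ionocytes, was at 179.7, 187, 243 and 248 normalized counts with DMSO. Boscalid larvae held 141, 169, 167 and 194, and M510F01 larvae 153, 238, 248 and 199. Boscalid replicates 1 to 3 lay below every DMSO library and boscalid replicate 4 lay among them. The foxi3b mean was 167 ± 21.6 for boscalid, 209.5 ± 43.1 for M510F01 and 214 ± 36.1 for DMSO (SD, n = 4 each), and M510F01 and DMSO were closer than their spread. The foxi3b difference was -0.35 with boscalid (SE 0.15, 95% interval -0.68 to -0.02, limma adjusted p = 0.65) and -0.04 with M510F01 (SE 0.17, interval -0.42 to 0.34).

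Foxi3a stood at 70.5, 69.2, 115 and 101.4 normalized counts with DMSO, 47.3, 71.6, 73.5 and 96.8 with boscalid, and 42.9, 83.1, 85.5 and 62.3 with M510F01. Replicate 1 of either compound was the lowest, and the groups overlapped. Its estimates were -0.30 with boscalid (interval -0.83 to 0.23) and -0.39 with M510F01 (interval -0.93 to 0.15). The means were 68.5 ± 19.97 with M510F01, 72.3 ± 20.2 for boscalid and 88.9 ± 22.7 for DMSO (SD, 4 libraries each), neighbours in this order differing by less than their spread. Without boscalid replicate 1 the boscalid estimate was -0.12, and without M510F01 replicate 1 that of M510F01 was -0.18.

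Gcm2, which directs HR cells, was at 123, 114, 132 and 134 normalized counts with DMSO. It was at 99.0, 149, 112 and 164 with boscalid and at 99.1, 138, 143 and 136 with M510F01. The gcm2 means of 126 ± 9.31, 131 ± 30.4 and 129 ± 20.1 (SD, n = 4 each) differed by less than the spread of any group, and intervals of the difference from DMSO were -0.34 to 0.40 for boscalid and -0.29 to 0.33 for M510F01. On a list of genes of calcium regulation, those of the corpuscles of Stannius among them, casr and stc1l were under the filter. Their means were 4.93 and 5.88 normalized counts, and stc1l was at 0 in 2 libraries. The summed level of this list, gcm2 included, ran from 162.8 to 208.1 with DMSO, 140.7 to 223 with boscalid and 148.2 to 183.5 with M510F01.

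Across the 8 genes, 0 passed with boscalid by limma, against 0.0173% of all 23085 genes tested. An unadjusted p under 0.05 was found for 3 of the 8 (ca15a, slc12a10.2 and foxi3b) and for 7.68% of all genes. EdgeR called 0 of the 8 and 0.0173% of all genes, and DESeq2 called 1 of the 8, ca15a, and 0.402% of 22636 genes. The estimates were positive for 4 and negative for 4, with a median of -0.02 beside -4.4e-05 for all genes tested. With M510F01, 0 of the 8 passed by limma, edgeR or DESeq2 and 0 had an unadjusted p under 0.05, beside 0.0% and 3.61% of 23193 genes. None of the 8 had its M510F01 libraries all above the controls, as 1.12% of genes did, or all below them, as 1.06% did. The median with M510F01 was -0.01. Both comparisons use the same DMSO libraries.

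**Figure D2:**
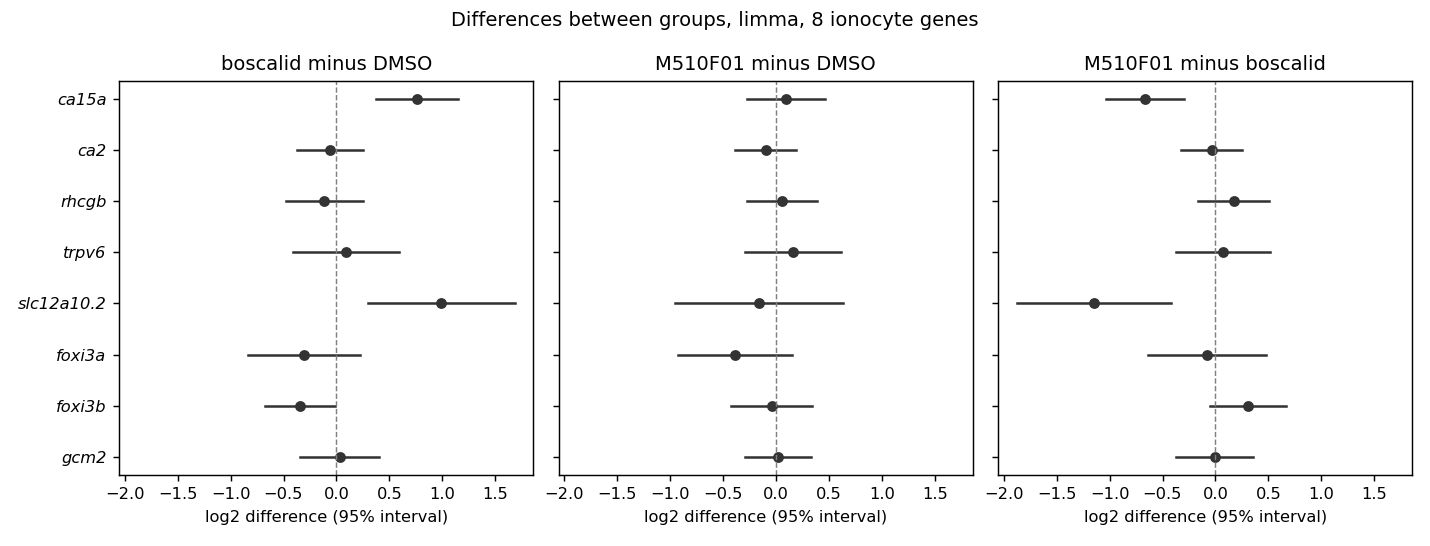
Log2 differences of the 8 ionocyte genes (points) with 95% intervals (lines) from limma, in 3 comparisons between groups of 4 libraries. M510F01 minus boscalid was fitted with all 12 libraries. With boscalid against DMSO the intervals of ca15a (0.37 to 1.15), slc12a10.2 (0.29 to 1.68) and foxi3b (-0.68 to -0.02) leave out 0, and no gene passed after adjustment over all genes.

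Parent compound and metabolite were compared directly as 1 pair at one concentration and age, M510F01 minus boscalid. The libraries are those compared with DMSO above, so these estimates are not independent of the earlier ones. For ca15a the log2 difference was -0.66 (SE 0.17, 95% interval -1.03 to -0.30, limma adjusted p = 0.84, unadjusted p = 0.0017). For slc12a10.2 it was -1.15 (SE 0.34, interval -1.87 to -0.42, adjusted p = 0.84, unadjusted p = 0.0044). All 4 M510F01 libraries lay below all 4 boscalid libraries for these 2 of the 8 genes and for 1.39% of the 23075 genes tested, while none of the 8 had the opposite arrangement, found for 1.05%. None of the 8 passed by limma, where 0.013% of all genes did, nor by edgeR or DESeq2, which called 0.00867% and 0.0884% of all genes, and 2 had an unadjusted p under 0.05, as 4.6% of all genes did. The interval was -0.05 to 0.67 for foxi3b, -0.64 to 0.47 for foxi3a, -0.37 to 0.35 for gcm2, -0.16 to 0.50 for rhcgb, -0.37 to 0.51 for trpv6 and -0.32 to 0.25 for ca2.

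Other transport genes of NCC cells did not share 1 direction. The basolateral chloride channel clcn2c stood at 36.7, 36.7, 129 and 28.8 normalized counts with DMSO, 104, 95.2, 155 and 159 with boscalid, and 39.9, 45.6, 50.9 and 98.9 with M510F01. As for slc12a10.2, DMSO replicate 3 lay within the boscalid range and the other DMSO libraries lay below it, and M510F01 replicate 4 was the highest of its group. Boscalid minus DMSO was 1.37 for clcn2c (SE 0.41, limma adjusted p = 0.54). Without DMSO replicate 3, the highest control, the difference was 1.85 and passed (limma adjusted p = 0.035). Over its 20 alternatives the adjusted p ran from 0.035 to 0.97, and clcn2c did not pass in 19 of them.

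The Na+/K+-ATPase subunit gene atp1a1a.2, reported in NCC cells, stood at 1985, 2307, 2252 and 2088 normalized counts with DMSO and at 1189, 1392, 1594 and 1929 with boscalid. All boscalid libraries lay below all DMSO libraries, as for 2.07% of all genes tested. The atp1a1a.2 estimate was -0.52 (SE 0.15, limma adjusted p = 0.51). With M510F01 the gene stood at 1268, 2198, 2097 and 1827, overlapping both groups. The bicarbonate cotransporter slc4a4b was at 0.05 (SE 0.092, adjusted p = 0.85). None of the 4 NCC genes passed with boscalid by limma, edgeR or DESeq2, where 0.0173%, 0.0173% and 0.402% of all genes did. An unadjusted p under 0.05, found for 7.68% of all genes, was found for 3 of them, slc12a10.2 included. Between the compounds clcn2c stood at -1.17 (SE 0.41, adjusted p = 0.84) for M510F01 minus boscalid. There slc4a4b was at -0.20 (SE 0.081, adjusted p = 0.84) and atp1a1a.2 at 0.27 (SE 0.17). An unadjusted p under 0.05 was found for 3 of the 4 NCC genes, all with negative estimates, and for 4.6% of all genes. All M510F01 libraries lay below all boscalid libraries for 2 of the 4, slc12a10.2 and slc4a4b, and for 1.39% of all genes.

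The potassium channel genes of KS cells, kcnj1a.1 to kcnj1a.6, all had negative estimates with boscalid. Their median log2 difference was -0.68 beside -4.4e-05 for all genes, and 0 of the 6 passed by limma, edgeR or DESeq2. An unadjusted p under 0.05 was found for 5 of them, where 7.68% of all genes had one. Kcnj1a.5 stood at 211, 229.5, 237 and 236 normalized counts with DMSO, 93.4, 123, 170.2 and 178 with boscalid, and 104, 216, 270 and 202 with M510F01. All boscalid libraries lay below all DMSO libraries for kcnj1a.5 and likewise for kcnj1a.3 and kcnj1a.6, an arrangement found for 2.07% of all genes tested. Estimates of boscalid minus DMSO ran from -0.84 for kcnj1a.2 (SE 0.22, limma adjusted p = 0.47) to -0.41 for kcnj1a.1 (SE 0.24, adjusted p = 0.66).

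With M510F01 the same 6 genes had a median of -0.21, from -0.52 for kcnj1a.2 (SE 0.22) to -0.01 for kcnj1a.4 (SE 0.27), each with limma adjusted p = 0.9998 and 0 passing by edgeR or DESeq2. For 1 of them, kcnj1a.2, the limma unadjusted p was under 0.05 (0.039), beside 3.61% of all genes. M510F01 replicate 1 held the lowest M510F01 value of all 6, such as 104 for kcnj1a.5 beside 202 to 270 in the others. Their M510F01 estimates without that library were not examined. For M510F01 minus boscalid all 6 estimates were positive, with a median of 0.42 and 0 passing by these tools. An unadjusted p under 0.05 was found for 1 (kcnj1a.3, 0.54, SE 0.23, limma adjusted p = 0.84), beside 4.6% of all genes. The boscalid libraries are those compared with DMSO above, so these signs are not a separate observation. The 6 genes lie side by side in the RefSeq annotation of GRCz12tu. Reads could be shared between these copies, and they are not 6 independent measurements. The KS channel genes were described after their values were seen. The alternative fits of clcn2c and atp1a1a.2, such as those without 1 library, were likewise not planned.

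**Figure D3:**
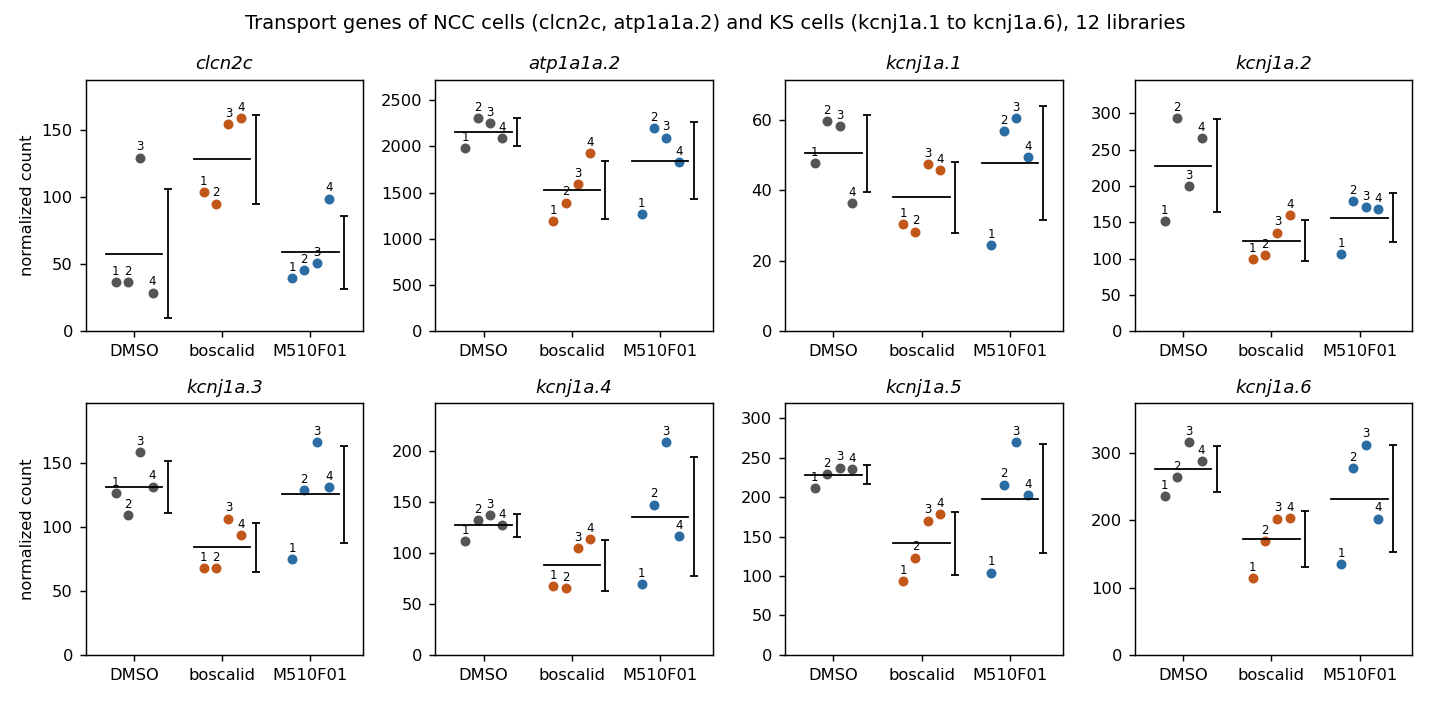
Normalized counts of 2 transport genes of NCC cells (clcn2c, atp1a1a.2) and the 6 channel genes of KS cells in 12 libraries (points, labelled with the replicate number), with mean (line) and SD (bar) per group of 4. Clcn2c in DMSO replicate 3 is at 129 beside 28.8 to 36.7 in the other controls, and kcnj1a.5 runs from 93.4 to 178 with boscalid and from 211 to 237 with DMSO.

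The list of HR transport genes had a median of -0.09 with boscalid. Of its 8 genes 0 passed by limma and 1 by DESeq2 (ca15a), where 0.0173% and 0.402% of all genes did. Its other members with the smallest p were atp1a1a.5, a Na+/K+-ATPase subunit (-0.22, SE 0.15), the sodium/hydrogen exchanger slc9a3.2 (-0.32, SE 0.22) and the ammonia channel rhbg (0.21, SE 0.16). On the NaR list 0 of 5 passed by any of these tools, beside the same shares of all genes, and the median was -0.10. The sodium/calcium exchanger slc8a1b was at -0.25 (SE 0.21), the calcium pump atp2b2 at -0.11 (SE 0.15) and atp1a1a.1 at -0.10 (SE 0.10). For atp1a1a.1 (limma unadjusted p = 0.34) all boscalid libraries lay below all DMSO libraries, as for 2.07% of all genes tested.

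Ionocyte specification genes had 13 members tested, of which 0 passed with boscalid by limma, edgeR or DESeq2, 3 had an unadjusted p under 0.05 (foxi3b included, against 7.68% of all genes), and 9 had a negative estimate (median -0.17), as did 11544 of the 23085 genes tested. Tp63, a factor of epidermal stem cells, stood at 397, 411, 332 and 473 normalized counts with DMSO, 332, 381, 274 and 230.2 with boscalid, and 319, 319, 287 and 253 with M510F01. The tp63 estimate was -0.42 with boscalid (SE 0.17, limma adjusted p = 0.65) and -0.45 with M510F01 (SE 0.13, limma adjusted p = 0.9998, unadjusted p = 0.0046). For tp63, 1 of the 13 genes, every M510F01 library lay below every DMSO library, as for 1.06% of all genes tested. The epithelial factor grhl1 was at -0.37 with boscalid (SE 0.15, adjusted p = 0.65), and the Notch ligand gene jag2b at -0.15.

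In 8 further lists of ion pumps, carbonic anhydrases, cotransporters, channels and the hormones that regulate salt and calcium, 107 genes outside the ionocyte lists were tested and 0 passed with boscalid by limma, edgeR or DESeq2, with 8 at an unadjusted p under 0.05. That share is near the 7.68% of all genes, and the values that follow are given as a description. Among the genes with the smallest p in each list were the vacuolar proton pump gene atp6v0a2a (0.39, SE 0.13), the potassium/chloride cotransporter slc12a7a (-0.41, SE 0.12), the vitamin D activating enzyme cyp27b1 (0.65, SE 0.24) and hsd11b2, which inactivates cortisol (0.23, SE 0.10). Their limma adjusted p-values lay between 0.54 and 0.65. On the vacuolar proton pump list 18 of 23 genes had a positive estimate (median 0.18), as did 11541 of the 23085 genes tested. On the cotransporter list 3 of 13 had one (median -0.12). These sign counts are of whole lists. They include atp6v1aa of the HR list, with a negative estimate, and slc12a10.2, with a positive one.

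Within groups, high and low values of the 8 genes often fell in the same libraries. The share of all genes with their extremes in these libraries was not counted, so this is a description only. In boscalid replicate 4 all 8 were at the highest value of their group, and in boscalid replicate 1 there were 7 at the lowest. DMSO replicate 2 held 6 of the lowest control values and DMSO replicate 3 held 5 of the highest, and M510F01 replicate 1 held 6 of the lowest. Numbers 3 and 4 were set against 1 and 2 because earlier results of these data had parted the libraries so. Replicates 3 and 4 averaged above 1 and 2 for all 8 genes in DMSO, by 0.17 (gcm2) to 0.82 (slc12a10.2) on the log2 scale, and in boscalid, by 0.16 (gcm2) to 0.53 (foxi3a). In M510F01 they did so for 6 genes, with trpv6 at -0.15 and rhcgb at -0.19. The median over all genes tested was 0.01, 0.02 and 0.01 in these groups, and the scaling of the libraries holds it near 0. It cannot show whether shifts of this size are unusual, and the spread over all genes was not examined.

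The spread between replicates is given beside the part that read counting alone would give, as a description of precision. For slc12a10.2 the within-group SD was 0.57 on the log2 scale, where counting gives 0.094, and for trpv6 it was 0.34 against 0.062. For ca15a it was 0.24 against 0.16, the smallest ratio of the 8 at 1.56, and for ca2 0.19 against 0.024, the largest at 8.07.

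Over the 12 libraries, clcn2c was the fourth most like slc12a10.2 of 15239 genes ranked by Pearson r of log2 levels (r = 0.95, Spearman rho = 0.90), after tuba1a (0.96), the ferritin gene fthl29 (0.96) and ccnc (0.95). For trpv6 the most alike were pam16 (r = 0.93, rho = 0.90), acvrl1 (0.89), tprg1 (0.89), fam49bb (0.88) and wdr76 (0.87). For the mean of the 8 genes they were hhla2b.2 (r = 0.96, rho = 0.94), asah1b (0.96), fam49ba (0.95), ino80c (0.95) and AK6 (0.94). These values describe the ranking; each r was picked as a maximum, and the libraries share the groups and the replicate differences above.

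Markers of other cell types were summed by library. The summed level of 10 keratinocyte markers ran from 89653 to 112538 normalized counts with DMSO, 102705 to 157765 with boscalid and 62605 to 115173 with M510F01. Most of that sum was the keratin gene krt4, at 55721 ± 4838 with DMSO and 78888 ± 15088 with boscalid (SD, n = 4 each). Of the 10 markers 5 had a positive and 5 a negative estimate with boscalid (median -0.04), among them krt17 at -0.61 (SE 0.30), evpla at -0.34 (SE 0.19), cdh1 at -0.28 (SE 0.21) and epcam at -0.26 (SE 0.27). The summed level of 5 mucous cell markers ran from 5998 to 8351 with DMSO and from 4334 to 5310 with boscalid, without overlap. With M510F01 it ran from 5152 to 7501. How often sums of other genes part in this way was not counted. With boscalid 1 of these markers had a positive estimate, pvalb8 at 0.10 (SE 0.27), and 4 a negative one (median -0.36). Muc5.2 was at -0.65 (SE 0.18), muc5.3 at -0.36 (SE 0.24) and agr2 at -0.10 (SE 0.23). Krtt1c19e, a keratin of the basal skin layer, stood at 12554 in DMSO replicate 3 beside 5518 to 6956 in the other controls and 10923 to 13018 with boscalid. Summed markers of pronephros, another site of ion transport, ran from 8496 to 9048 with DMSO and 8225 to 9342 with boscalid, and those of erythrocytes from 5820 to 6801 and 5048 to 6325. Of 10 pronephros markers 6 had a positive estimate with boscalid (median 0.03). Of 10 erythrocyte markers 1 had a positive estimate with boscalid (median -0.18) and 0 with M510F01 (median -0.26). In the erythrocyte sum, rhag alone stood at 3480 ± 460 with DMSO and 3456 ± 622 with boscalid (SD, n = 4 each). None of the 38 markers tested passed with boscalid by limma or edgeR, and DESeq2, which called 0.402% of all genes, called 3, the keratinocyte gene anxa1c (limma estimate 0.91), the mucin gene muc5.1 (-0.79) and the pronephros gene slc13a3 (0.73). No keratinocyte, mucous cell, pronephros or erythrocyte marker was at 0 in any library. Their part in the ionocyte values was not tested.

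**Figure D4:**
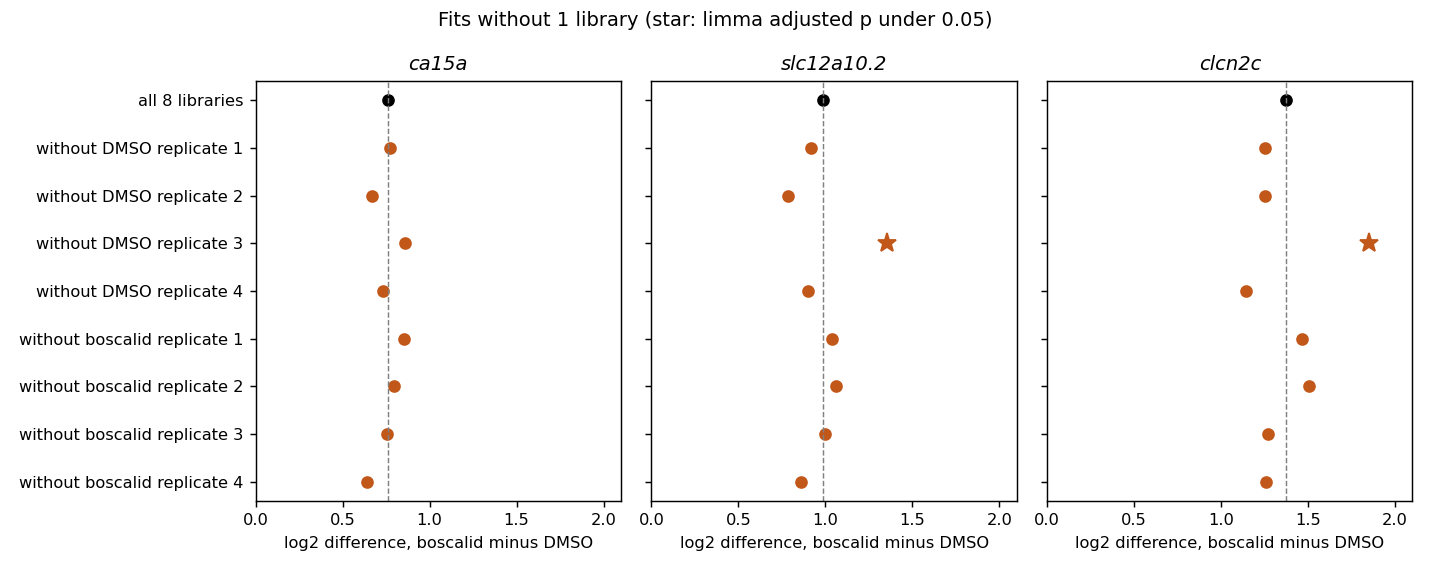
Log2 difference of boscalid minus DMSO for ca15a, slc12a10.2 and clcn2c with all 8 libraries (black, dashed line) and without 1 library at a time (orange); a star marks a limma adjusted p under 0.05. Ca15a stays between 0.64 and 0.86, and slc12a10.2 and clcn2c reach 1.35 and 1.85 without DMSO replicate 3.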

How the data were processed

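Stranded libraries of whole-larva total RNA, depleted of ribosomal RNA, were sequenced as paired reads, per the labels' protocols. FastQC, cutadapt, STAR, featureCounts and DESeq2 are named in the submitters' processing notes; for build, annotation and strand setting, the sources used here give nothing. The authors deposited, for each compound with the DMSO libraries, normalized counts, a signal for every gene in every library. They also deposited log2 fold changes, a test score, and p-values per gene, in columns named as DESeq2 names them, per the file headers. Dividing by the step of each column gave whole reads for 100% of values (tolerance 0.01 reads), with identical DMSO reads in both tables.

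Each compound was tested against DMSO within its own table with limma 3.58.1 (R 4.3.3; trend and robust settings) on log2 of normalized count plus 1. Genes with a mean of at least 10 were tested and p-values adjusted over all of them by Benjamini-Hochberg, with a threshold of 0.05. M510F01 minus boscalid used all 12 libraries, scaled together by median-of-ratios factors. Printed levels have that scale. EdgeR 4.0.16 and DESeq2 1.42.0 were run on the recovered reads, and the fits were tested on simulated data. The 8 genes and 18 gene lists (207 entries, 204 in the tables) were chosen with earlier results of these data known. All 8 genes were named. Of each list, genes past the threshold or else up to 4 with the smallest p with boscalid could be named. Outside this rule, neighbouring gene copies, all KS channel genes and further cell type markers were also named. Genes most alike were the 5 with the highest Pearson r among genes averaging 50 or more with a symbol other than a clone or locus placeholder. One of them is not reported here. Other alternatives were the pseudocount, filter, scaling, robust setting, replicate terms, a fit of other groups and leaving out each library. Figures were drawn with matplotlib 3.10.9.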

Additional observations from a re-analysis of the deposited data

Results flagged for a closer look

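The 8 genes, clcn2c and the 6 kcnj1a genes in 3 groups gave 45 gene and group combinations. In 3 of them a library lay far from the rest of its group on normalized counts. The measure was Dixon's ratio, the gap to the nearest library divided by the range of the group. Its limit is meant to flag about 1 in 20 by chance, and whether that rate holds for these counts was not tested. Flags on the log2 scale of the fits were not examined, so these 3 describe the counts only. Slc12a10.2 stood at 475.5 normalized counts in DMSO replicate 3, and clcn2c at 129.5 in the same library. Kcnj1a.2 stood at 106.3 in M510F01 replicate 1.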

How the results depend on the processing

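Counts of called genes depended on the method. Boscalid against DMSO gave 4 by limma, 91 by DESeq2, 90 with a replicate block, 19 with a term setting numbers 1 and 2 apart from 3 and 4, 9 in a joint fit of the 3 groups, and 2 to 8 without 1 library (8 without DMSO replicate 3, 2 without DMSO replicate 1). M510F01 against DMSO gave 0, and 1 with the replicate block. M510F01 against boscalid gave 3, then 20 by DESeq2, 8 with the block, 5 with the term, and 2 to 3 without 1 library. The cause was not tested. None of the 8 genes was among the calls except ca15a by DESeq2 and slc12a10.2 without DMSO replicate 3; outside them, kcnj1a.6 passed with the replicate block (adjusted p = 0.032). Same-numbered libraries did not all deviate together (r from 0.02 to 0.51 for boscalid and DMSO, -0.03 to 0.48 for M510F01 and DMSO, 0.0056 to 0.51 between the compounds). Replicate 1 correlated best with replicate 1 in all 3 comparisons (r = 0.51, 0.48 and 0.51), but other libraries did not all do so with their own number. The labels give no pairing, and the numbers were not used as pairs in the main fits. Whether same-numbered libraries share a batch was not tested, and the p-values of those fits take no account of it.

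Signs turned only for small estimates, without 1 library. With boscalid, ca2 ran from -0.14 to 0.027, trpv6 from -0.021 to 0.32 and gcm2 from -0.087 to 0.15. With M510F01, slc12a10.2 ran from -0.41 to 0.20, foxi3b from -0.13 to 0.10, gcm2 from -0.035 to 0.14 and rhcgb from -0.057 to 0.15. Between the compounds, ca2 ran from -0.12 to 0.039, trpv6 from -0.038 to 0.15, foxi3a from -0.27 to 0.12 and gcm2 from -0.13 to 0.11. Kcnj1a.1 had no value under the filter of a mean of 50. Read counting gives the widest error for foxi3a and ca15a, an SD of 0.17 and 0.16 on the log2 scale.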
